A study of Mus musculus with 4 samples.

Results

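The 8 genes described here encode proteins that neutrophil precursors make late in maturation, and were chosen by name: S100a8, S100a9, Ngp, Camp, Ltf, Lcn2, Retnlg and Chil3, among 27998 measured genes. RNA of single LSK cells (Lin-Sca1+cKit+ bone marrow cells, the fraction that holds blood stem cells and multipotent progenitors) was counted in droplets by 3′ transcript ends in 4 libraries. The 2 control libraries are of Nup358 fl/fl genotype (wild-type in the labels), and the 2 Nup358 knockout libraries are of Nup358 fl/fl CreERT2 genotype. Nup358 is a nuclear pore protein, and each library pooled 3 bone marrows of adult mice. The Cre sits in a locus that is active in all cells and acts after tamoxifen, so that deletion was not limited to blood cells, and the controls carry the floxed allele without CreERT2. With 2 libraries of each genotype, p-values rest on the spread between these libraries and, in the fits below, on spread borrowed across genes. Spread between single mice was not measured.

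Neutrophils fill their granules in a fixed order. Promyelocytes make the proteases and peroxidase of primary granules (Elane, Mpo, Prtn3, Ctsg), while myelocytes and later cells make the proteins of secondary granules, and the cytoplasm fills with the S100a8 and S100a9 pair as cells mature. These transcripts are among the most abundant of late neutrophil precursors, which carry little Kit and which the lineage antibodies should remove from an LSK sort.

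S100a8 and S100a9, the subunits of calprotectin, lie 22.6 kb apart on chromosome 3 (GRCm38, 90668978 to 90670035 on the plus strand and 90692632 to 90695721 on the minus strand). Chil3, a chitinase-like lectin, lies on the same chromosome at 106147554 to 106167564. Camp, the cathelicidin (chromosome 9, 109847379 to 109849617), Ngp, a cystatin-like granule protein (110419747 to 110423012), and Ltf, lactoferrin (111019271 to 111042767), follow each other on chromosome 9, with gaps of 570 and 596 kb. Lcn2, the siderophore-binding lipocalin, is on chromosome 2 (32384633 to 32388252), and Retnlg, a resistin-like secreted protein, on chromosome 16 (48872621 to 48874496). Promoters of all 8 genes, from 250 bases before to 50 after the start, were matched in RefSeq (GRCm38.p6). They were searched on both strands for TTNNGNAA, the core of sites for C/EBP factors, which drive granule genes. It was present in 7 of 8 member promoters and in 40.7% of all 32851 promoters. The letters GAGGAA, read by PU.1, were in 3 of 8 and in 28.3% of all. The 4 promoters printed here belong to the genes whose values differ most below: Lcn2, which was spread over many cells, S100a8 and S100a9, which parted in progenitors, and Ngp, which stayed in few cells. Capitals mark TTNNGNAA on either strand, and a match is a description of letters only. Their positions are chr2:32387690-32387989 (minus strand), chr3:90668821-90669120 (plus), chr3:90695672-90695971 (minus) and chr9:110419558-110419857 (plus).
Lcn2: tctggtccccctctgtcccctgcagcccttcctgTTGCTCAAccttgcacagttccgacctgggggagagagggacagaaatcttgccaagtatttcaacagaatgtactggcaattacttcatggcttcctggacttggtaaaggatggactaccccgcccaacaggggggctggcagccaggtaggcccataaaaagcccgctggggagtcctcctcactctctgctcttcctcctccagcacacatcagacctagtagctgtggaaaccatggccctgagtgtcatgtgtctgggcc
S100a8: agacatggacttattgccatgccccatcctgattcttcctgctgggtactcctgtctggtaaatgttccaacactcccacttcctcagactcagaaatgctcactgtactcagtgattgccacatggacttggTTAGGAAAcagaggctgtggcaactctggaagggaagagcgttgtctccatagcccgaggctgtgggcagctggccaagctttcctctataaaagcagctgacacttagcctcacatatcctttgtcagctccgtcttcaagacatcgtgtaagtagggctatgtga
S100a9: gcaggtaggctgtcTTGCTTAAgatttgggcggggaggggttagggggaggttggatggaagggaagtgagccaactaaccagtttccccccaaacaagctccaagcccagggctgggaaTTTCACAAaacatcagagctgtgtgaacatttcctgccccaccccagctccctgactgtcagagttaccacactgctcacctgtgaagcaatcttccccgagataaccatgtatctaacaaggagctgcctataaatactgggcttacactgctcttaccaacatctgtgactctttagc
Ngp: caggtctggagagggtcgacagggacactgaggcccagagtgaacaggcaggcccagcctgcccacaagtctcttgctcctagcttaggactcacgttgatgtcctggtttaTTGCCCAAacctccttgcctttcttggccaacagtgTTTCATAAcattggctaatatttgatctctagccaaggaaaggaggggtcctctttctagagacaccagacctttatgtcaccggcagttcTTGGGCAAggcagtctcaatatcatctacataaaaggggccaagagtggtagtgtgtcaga

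Before the results, 1 fact on the libraries touches all of them. Of 25242 deposited barcodes, 10936 (43.3%) repeated a barcode that held at least 3 times the UMIs in another library, and these were left out. This removed between 14.8% and 81.8% of a library and left 7830 and 1200 cells of the control and 1589 and 3422 of the knockout. A UMI stands for 1 captured molecule, and levels are CPM, UMIs scaled to 1000000 over the cells summed. Median UMIs per kept cell were 6251 and 13176 in control and 17707 and 14399 in knockout, so that control replicate 1 was the shallowest. Cells were gated by marker lists that hold none of the 8 genes. The neutrophil-primed gate (at least 3 of 6 primary granule markers and at least 0.5% of UMIs from them) held 2466 and 167 control cells and 96 and 90 knockout cells. These were 31.5% and 13.9% of control cells but 6.04% and 2.63% of knockout cells. The mature neutrophil gate held 35 cells in all, and 11187 cells lay outside both.

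The 8 genes were concentrated in very few cells. A high cell was defined as one with at least 1% of its UMIs from the 8 genes together, and 46 of 14041 cells were high. They held 92.5% of the 80038 member UMIs. The cells next to the cutoff had 0.953% below it and 1.16% above it. Control replicates 1 and 2 had 22 and 9 high cells, and knockout replicates 1 and 2 had 6 and 9. Their shares were 0.281% (exact 95% binomial interval 0.176 to 0.425) in control replicate 1 and 0.75% (0.344 to 1.42) in control replicate 2. In the knockout they were 0.378% (0.139 to 0.82) in replicate 1 and 0.263% (0.12 to 0.499) in replicate 2. The genotypes overlapped, and knockout minus control was -0.195 points of percent (two-sided p = 0.667 by an exact permutation of the libraries, where 0.33 is the smallest p this design allows). The sign depended on control replicate 2, without which the difference was 0.0393 points. Intervals and limits here cover counting error only.

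Summed over libraries, all members but Lcn2 had at least 90.4% of their UMIs in these cells. That did not make S100a8 absent outside them, where it was at 26.8 and 30.1 CPM in control and 1.19 and 0.279 in knockout. High cells held 99.0% of the Retnlg UMIs, 98.3% of Camp, 98.1% of S100a9, 98.0% of Ngp, 93.7% of Ltf, 92.2% of S100a8 and 90.4% of Chil3. Lcn2 was the exception in UMIs summed over libraries, with 52.0% of its UMIs in high cells and at least 1 UMI in 1410 other cells. Outside high cells no cell held more than 15 Lcn2 UMIs, whereas S100a8 reached 151. The libraries differed in this. The share of Lcn2 UMIs in high cells was 33.6% and 76.6% in control and 29.7% and 84.4% in knockout, and Lcn2 was the lowest of the 8 in all libraries but knockout replicate 2, where Ltf was at 81.2%. In control replicate 1 the share was 77.9% for S100a8 and 67.7% for Chil3. The cells needed to reach 50% of the Lcn2 UMIs were 117 and 2 in control and 15 and 2 in knockout, against 8, 3, 3 and 2 for S100a8.

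**Figure D1:**
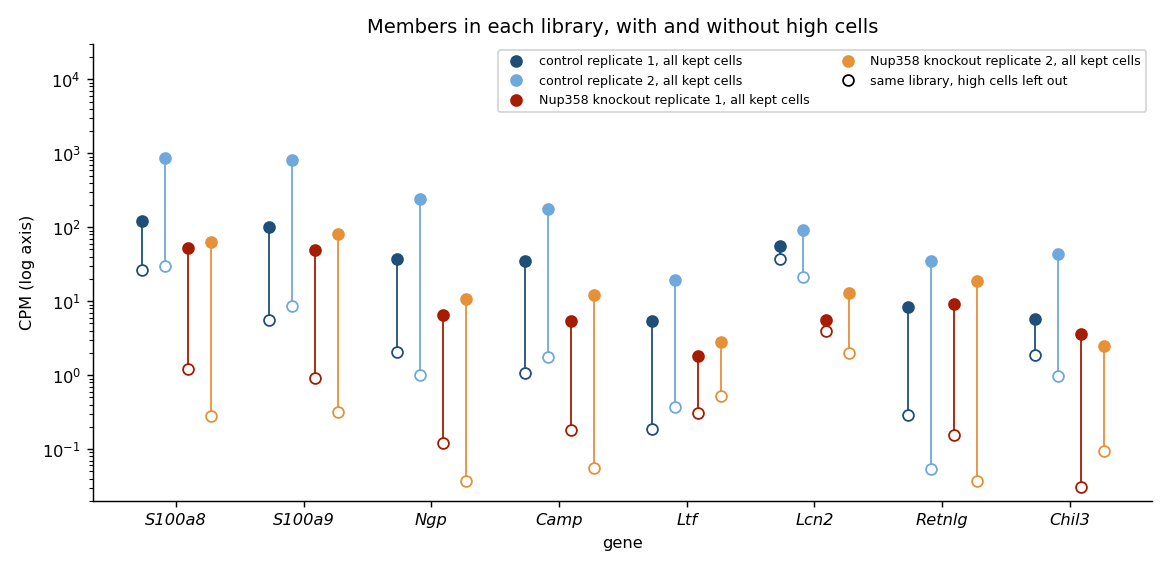
CPM (log axis) of each of the 8 genes in each library, in all kept cells (filled points) and with high cells left out (open points); a line joins the values of a library. Without high cells S100a9 fell to 5.5 and 8.49 CPM in control and 0.918 and 0.316 in knockout, while Lcn2 stayed at 37.2 and 21.4 in control and 3.92 and 2.01 in knockout.

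The high cells were of several kinds, told apart by their own member counts and therefore described without a test. Of the 46, 8 lay in the neutrophil-primed gate, 14 others had more Camp than Retnlg and 23 had more Retnlg than Camp, and 1 had neither. That cell, in control replicate 2, was gated as monocyte-primed and held 613 S100a8 and 616 S100a9 UMIs. The 8 primed cells were large, with a median of 22511 UMIs, and all held Elane. Retnlg was in 4 of the 8. In control replicate 1, primed cells with 148 and 123 Elane UMIs had 41 and 56 of Retnlg. Doublets were not called, and whether these cells are doublets was not tested. Members made up a median of 3.27% of their UMIs, from 1.26% to 18.96%. S100a8 and S100a9 were in all 8, Ltf in only 2.

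The 14 Camp-leading cells had a median of 42.1% of their UMIs from the 8 genes. Ngp, Camp, Ltf and Lcn2 were in all 14 and Chil3 in 13, and Mki67, a gene of dividing cells, was in 10. S100a8 held a median of 34.1% of the member UMIs in a cell, S100a9 31.8%, Ngp 12.4%, Camp 12.7%, Lcn2 4.59% and Ltf 2.50%. All 23 Retnlg-leading cells held the S100 pair and 22 held Lcn2, while the other granule genes were found in fewer. S100a9 held a median of 43.1% of the member UMIs and Retnlg 11.2%, whereas Ngp was seen in 13 of 23 cells (median 0.433% of the member UMIs), Camp in 8, Ltf in 6 and Chil3 in 6. Cxcr2, the chemokine receptor of mature neutrophils, was in 20, the collagenase gene Mmp8 in 22 and Mki67 in 2. In the 14 Camp-leading cells Cxcr2 was in 8 and Mmp8 in 3. Ly6g and Cd177, also markers of the mature neutrophil gate, were each in 13 of the 14, against 14 and 13 of the 23. Kit, which the sort selects, was found in 1 of the 14 and 2 of the 23. Ly6a, the gene of Sca1, was in 0 and 4. Among all kept cells Kit was in 46.4% and 73.8% in control and 64.4% and 56.0% in knockout. For Ly6a these were 46.3% and 73.8% in control and 86.5% and 75.6% in knockout. The 14 and the 23 cells had medians of 3942 and 2294 UMIs. Camp-leading cells numbered 9 and 2 in control and 2 and 1 in knockout, and Retnlg-leading cells 8 and 5 in control and 3 and 7 in knockout.

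**Figure D2:**
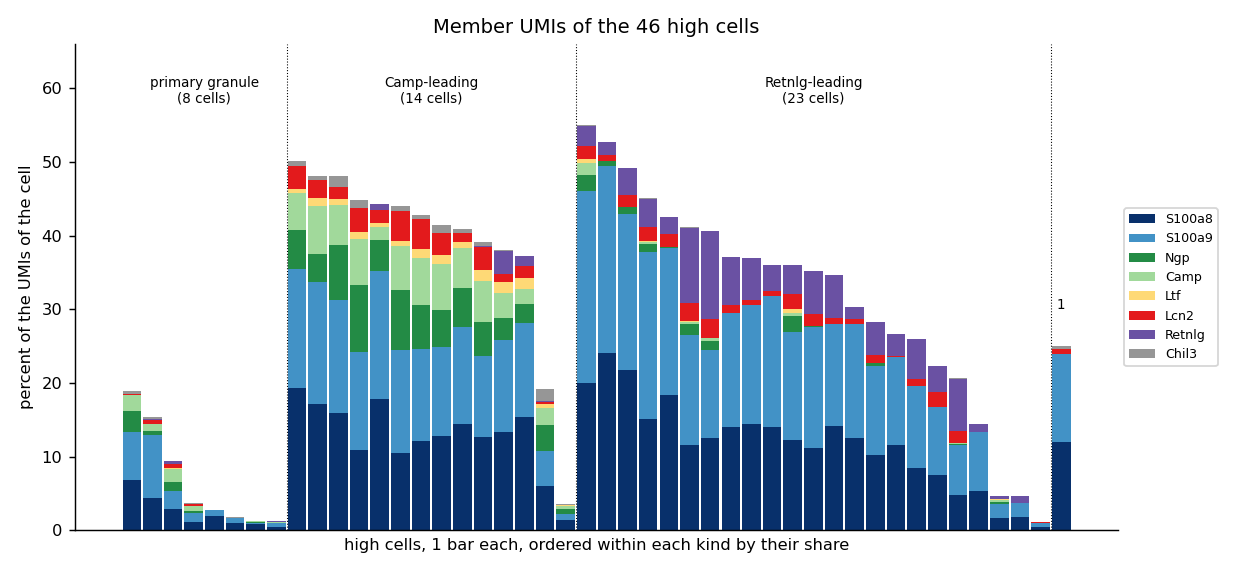
Percent of the UMIs of a cell (y axis) from each of the 8 genes, 1 stacked bar for each of the 46 high cells, ordered by their total within 4 kinds; the single cell at the right has neither Camp nor Retnlg. S100a8 and S100a9 fill most of the bars of the 14 Camp-leading and 23 Retnlg-leading cells; Ngp and Camp come next in the former and Retnlg in the latter.

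The order of gates by their member level was led by the mature neutrophil gate, at 409581 and 483702 CPM in control and 262730 and 163260 in knockout. This gate is named after its marker list, and not all of its 35 cells need be mature. It held 21 of the 23 Retnlg-leading cells but also 13 of the 14 Camp-leading cells, of which 10 of 14 held Mki67. The neutrophil-primed gate followed with 269.6 and 1806 in control and 320.3 and 1553 in knockout. A single high cell held 7286 of the 8187 member UMIs there in control replicate 2, 763 of 824 in knockout replicate 1 and 3075 of 3124 in knockout replicate 2, and without high cells the gate was at 136.5 and 200.5 in control and 24.1 and 24.6 in knockout. All other gates with at least 50 cells in each library were far lower. The lymphoid-primed multipotent gate had 70.1 and 18.2 in control and 5.76 and 2.82 in knockout. Its 70.1 in control replicate 1 includes high cells with 93 and 381 member UMIs, so it is not the level of most of its cells. The stem-like gate had 16.1 and 25.3 in control and 4.65 and 1.14 in knockout, so that these neighbours overlapped within each genotype. Lcn2 was not found in the 218 erythroid-primed or the 249 pro-B cells. The genes whose levels over 25 gate and library points were most like the sum of the 8 were Idh1 (Pearson r = 0.879), Hp, Dmkn, Cebpe, Mpo, Elane, Atp6ap2, Igsf6, Ms4a3 and Prtn3 (0.791). Each point had at least 50 cells, so the mature neutrophil gate is not among them. Mpo, Elane, Ms4a3 and Prtn3 are markers of the neutrophil-primed gate. Points from the same library share its depth and may share free RNA, which was not tested, so r is a description. Among high cells Elane was in 3 of the 14 Camp-leading and 0 of the 23 Retnlg-leading cells.

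The first comparison asked whether the 8 genes were higher in primed cells than outside the neutrophil gates. UMIs were summed per library and tested by edgeR's quasi-likelihood method, with p-values adjusted after Benjamini and Hochberg over all genes. Of 12494 genes, 46.2% differed and 24.9% were higher in primed cells. Of the members, 6 of 7 tested were higher. Lcn2 was at 80.2 and 82.5 CPM in control and 22.9 and 73.1 in knockout primed cells, against 8.25, 6.88, 2.39 and 1.24 outside. Every primed value was above every value outside, and the log2 fold was 4.08 (SE 0.33, adjusted p = 2.21e-05). Ltf did not pass (0.43, SE 0.47, adjusted p = 0.478), and Retnlg was too low to test. With high cells left out, a fit added after the data were seen, 2 of 5 members tested were higher, beside 46.3% of 12479 genes called (24.9% higher). These were Lcn2 (3.73, SE 0.17, edgeR adjusted p = 3.21e-07) and S100a8 (3.65, SE 0.26, adjusted p = 6.89e-06). S100a9 (0.80, SE 0.37, adjusted p = 0.098), Ngp (0.35, SE 0.36, adjusted p = 0.455) and Camp (0.22, SE 0.45, adjusted p = 0.719) did not pass, so that their calls depended on the high cells. S100a8 without high cells was at 52.9 and 103.2 CPM in primed control cells against 4.81 and 6.95 outside, but at 1.58 and 1.51 in primed knockout cells against 1.16 and 0.232. All 10 primary granule genes were higher, as the gate is built on 6 of them. So were 12 of 14 other late granule genes tested, led by Fcnb, a ficolin (9.08, SE 0.54), and 11 of 12 without high cells. Outside the gates Fcnb had 1 and 0 UMIs in control and 0 and 0 in knockout, so the size of its fold is not well measured. It passed the low-count filter through the gate alone, so that only a rise could be called. The Fcnb UMIs of the gate were 11 and 19 in knockout, each from 1 cell. In control replicate 2 a single high cell held 42 of 54, and in control replicate 1 82 UMIs lay in 41 cells. Higher too were 5 of 6 transcription factor genes, led by Cebpe, which is needed for secondary granules (4.72, SE 0.31). The other S100 genes went another way, with 1 of 7 higher and 4 lower, among them S100a4 (-1.51, SE 0.10) and S100a6 (-1.35, SE 0.12).

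Between genotypes over all kept cells, 3.44% of 13779 genes differed, with 2.07% lower in knockout, and 1 of 8 members did. Lcn2 was at 55.8 and 91.1 CPM in control and 5.56 and 12.8 in knockout, without overlap, a log2 fold of -3.02 (SE 0.42, edgeR adjusted p = 0.0193). S100a8 was at 121 and 855 in control and 51.7 and 62.3 in knockout (-3.16, SE 0.80, adjusted p = 0.08). Camp was at 35.1 and 176 against 5.44 and 12.3 (-3.60, SE 0.77, adjusted p = 0.0558) and Ngp at 37.2 and 237 against 6.60 and 10.6 (-4.03, SE 0.82, adjusted p = 0.052). Control replicate 2 was the highest library for all 8 genes, and its 9 high cells held 41678 of its 42879 member UMIs. Retnlg overlapped between genotypes, with 8.39 and 34.6 in control and 9.13 and 18.5 in knockout (-0.65, SE 0.63, adjusted p = 0.596). The median fold over the members was -3.04 on the log2 scale, against -0.01 over all genes. The count of members called was higher when any 1 library was left out. Each such fit keeps 1 library in 1 genotype and borrowed more spread across genes. Its prior was 7.32 and 8.44 degrees of freedom without control replicates 1 and 2, against 4.93 with all libraries. Without knockout replicates 1 and 2 the prior was 54.5 and 51.3. These counts therefore do not show what a given library holds. With high cells left out 6 of 7 members tested were lower in knockout beside 3.64% of 13754 genes called (2.17% lower), and Ltf was not (0.73, SE 0.57, adjusted p = 0.507). The knockout libraries then held 4 and 2 UMIs of Ngp, 6 and 3 of Camp and 1 and 5 of Chil3. Ngp, Camp and Chil3 passed the low-count filter through control alone, so that only a fall could be called. High cells are chosen by the members themselves, so these calls hold for the cells left only. In sums over cells, fewer cells of a kind and less RNA per cell cannot be told apart.

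The primary granule genes fell beside Lcn2, 9 of 10, with Elane at -5.42 (SE 0.40). Hp, haptoglobin (-4.24, SE 0.27), and Ifitm6 (-2.98, SE 0.33) fell among 18 other late granule genes tested. Cebpe (-3.42, SE 0.26) and Spi1, which encodes PU.1 (-0.78, SE 0.15), fell among 6 transcription factor genes. None of 7 other S100 genes, 2 resistin and chitinase-like relatives or 4 receptor genes passed.

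Within the neutrophil-primed gate 2.59% of 9961 genes differed, with 1.75% lower in knockout, and 0 of 7 members tested did, also by DESeq2 and at an unadjusted p under 0.05. Lcn2 gave -0.80 (SE 0.37, adjusted p = 0.279). The count was higher without either control library, where 1 control library is left. More spread was then borrowed across genes, with a prior of 33.4 and 40.8 degrees of freedom against 8.71. Single cells set some of these values. S100a9 was at 839.5 CPM in knockout replicate 2, where all 1689 UMIs came from 1 cell of 90, and at 119.7 in replicate 1, where all 308 came from 1 cell of 96.

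With high cells left out, a choice made after the data were seen and based on the members themselves, the picture in the gate was another. S100a8 was at 52.9 and 103.2 CPM in control and 1.58 and 1.51 in knockout, which rest on 4 and 3 UMIs. S100a9 was at 5.87 and 16.5 in control and listed at 0 in both knockout libraries, where 3 UMIs would be 1.19 and 1.51 CPM. Lcn2 was at 72.0 and 74.3 in control and 22.1 and 22.1 in knockout. All 3 members tested were called by edgeR, beside 3% of 9943 genes (2.04% lower). The log2 folds were -5.65 (SE 0.52, adjusted p = 6.13e-04) for S100a8 and -1.74 (SE 0.20, adjusted p = 0.00171) for Lcn2. Cells were left out by their member share, so these p-values hold for the cells left and cannot speak for the whole gate. In knockout the cells left out held 398 of 402 and 875 of 878 S100a8 UMIs. S100a8 and S100a9 passed the low-count filter through control alone, so that only a fall could be called. Primary granule markers were also lower in the knockout gate. Their median share of the UMIs of a primed cell was 1.29% and 1.35% in control and 0.742% and 0.73% in knockout. In the gate 6 of 10 primary granule genes fell, Elane among them (log2 fold -3.32). The levels are therefore also given within bins of that share.

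**Figure D3:**
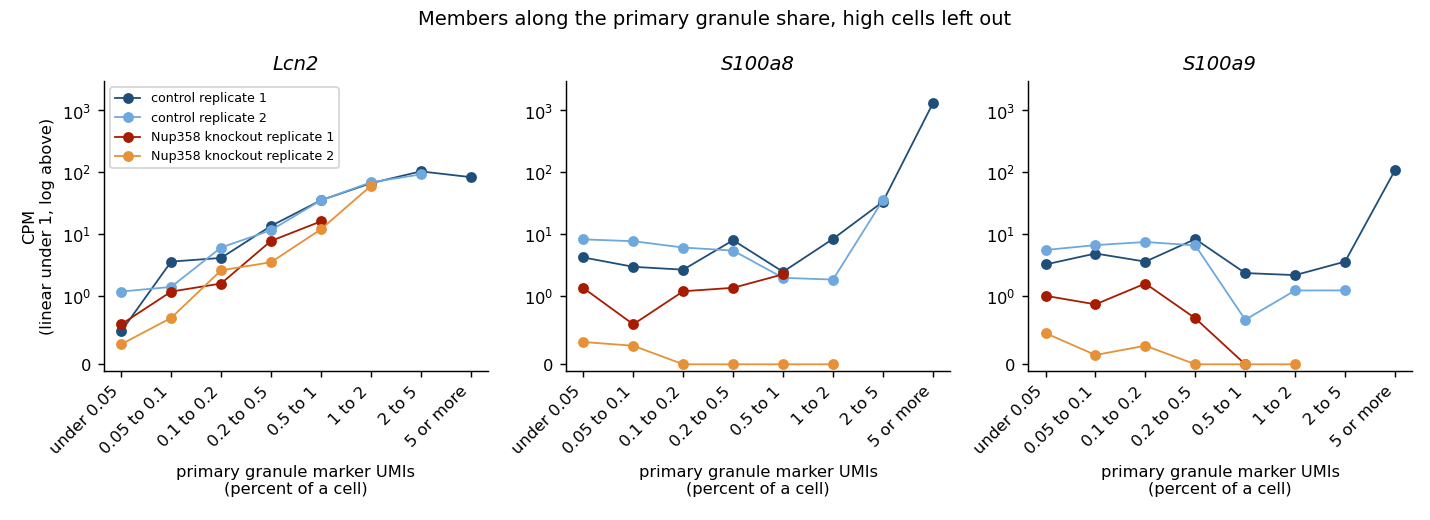
CPM of Lcn2, S100a8 and S100a9 (y axis, linear under 1 and log above) in cells binned by the percent of their UMIs from 6 primary granule markers (x axis), 1 line per library, high cells left out and bins under 20 cells not drawn. Lcn2 climbs with the share in all 4 libraries, from at most 1.17 in the lowest bin, except between the last 2 bins of control replicate 1, where it goes from 103.2 to 83.3, while S100a8 stays under 10 up to the 1 to 2% bin and reaches 1302 in the highest bin of control replicate 1.

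Lcn2 was higher from bin to bin up to a primary granule share of 5%. In control replicate 1 it went from 0.481 CPM under 0.05% to 13.5 at 0.2 to 0.5%, 35.1 at 0.5 to 1%, 66.3 at 1 to 2% and 103.2 at 2 to 5%, and was at 83.3 in the 57 cells at 5% or more. In control replicate 2 the last 2 bins were at 92.0 and 108.5, the latter in 7 cells. S100a8 was flat at first, at 2.44 in the 0.5 to 1% bin, and then went to 33.3 at 2 to 5% and 1302 at 5% or more, where it was found in 84.2% of 57 cells. The knockout libraries had 1 and 2 cells at 2 to 5% and none above, against 686 and 48 control cells at 2 to 5% and 57 and 7 above.

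The genotypes were compared within all 6 bins under 2%, of which the 0.5 to 1% bin had been looked at first. At 0.5 to 1% Lcn2 was at 35.1 and 35.1 in control and 15.99 and 11.9 in knockout, without overlap (-1.28, SE 0.25, edgeR adjusted p = 0.0305, with 2.02% of 9193 genes called). It did not pass at 0.1 to 0.2% (-1.06, SE 0.44, adjusted p = 0.146, with 8.34% called), at 0.2 to 0.5% (-1.11, SE 0.33, adjusted p = 0.064, with 8.22% called) or at 1 to 2% (-0.36, SE 0.26, adjusted p = 0.66, with 0.0389% called). In that last bin the knockout libraries had 16 and 21 cells and Lcn2 values of 42.5 and 60.0, against 66.3 and 68.7 in control. Lcn2 was too low to test in the other 2 bins, under 0.05% (0.61% of genes called) and at 0.05 to 0.1% (5.88% called). Lcn2 was thus lower in knockout in each of the 4 bins tested and passed in 1 of 6 fitted. S100a9 fell in 3 bins, at 0.05 to 0.1% (-3.40, SE 0.61, edgeR adjusted p = 0.0162), at 0.1 to 0.2% (-2.46, SE 0.67, adjusted p = 0.0458) and at 0.2 to 0.5% (-4.37, SE 0.62, adjusted p = 0.00445), and S100a8 in 2 of these, at 0.05 to 0.1% (-3.44, SE 0.69, adjusted p = 0.0226) and at 0.2 to 0.5% (-3.28, SE 0.66, adjusted p = 0.0193). These folds rest on few molecules, since the knockout libraries held 4 and 0 S100a9 UMIs at 0.2 to 0.5%, and 66 of the 95 in control replicate 1 came from 1 cell. Camp also fell in that bin (-4.06, SE 0.91, adjusted p = 0.0273). This too rests on few molecules, since all knockout cells outside both gates without high cells held only 5 and 2 Camp UMIs. At these counts S100a9 and Camp needed control to pass the low-count filter in that bin. Only a fall could then be called. Over all kept cells without high cells the knockout libraries held 30 and 17 S100a9 UMIs and 39 and 15 of S100a8. High cells had been left out by their member share, so the p-values of the bins hold for the cells left only. Neither S100a8 nor S100a9 passed under 0.05% (adjusted p = 0.094 and 0.0796), S100a8 did not at 0.1 to 0.2% (adjusted p = 0.0681), Ngp did not under 0.05% (adjusted p = 0.0816), and both S100 genes were too low to test from 0.5% to 2%.

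Outside both neutrophil gates 4.95% of 13431 genes differed, with 3.16% lower in knockout, and 6 of 7 members tested fell. Lcn2 was at 8.25 and 6.88 CPM in control and 2.39 and 1.24 in knockout (-2.09, SE 0.32, edgeR adjusted p = 0.0273). S100a8 was at 11.1 and 49.98 in control and 1.16 and 0.232 in knockout (-5.61, SE 0.94, adjusted p = 0.0328), and 4 high cells, 3 in control replicate 1 and 1 in control replicate 2, carried much of the control level. Without them S100a8 was at 4.81 and 6.95 in control (-3.18, SE 0.62, adjusted p = 0.0416). Again 6 of 7 members passed, beside 5.27% of 13430 genes (3.31% lower). Of these, Ngp then had 59 and 15 UMIs in control and 4 and 2 in knockout. Camp had 40 and 23 against 5 and 2, and Chil3 49 and 5 against 1 and 5. The knockout counts of these genes were the same with the high cells. In both sets Ngp, Camp and Chil3 passed the low-count filter through control alone, so that only a fall could be called. S100a8, with 35 and 12 UMIs in knockout, also needed control to pass that filter. Ltf did not pass in either set (-0.33, SE 0.46, adjusted p = 0.679 with the high cells).

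Without high cells, the low counts outside the gates had another mix than the high cells. Lcn2 made up 34.0% and 22.3% of the member UMIs in control and 44.4% and 48.9% in knockout, against 6.33%, 3.16%, 1.31% and 5.43% in the high cells of the same libraries. Ltf was 20.6% in knockout replicate 2, against 1.13% in its high cells. The ratio of S100a9 to S100a8 was close. Outside it was 1.08 and 0.859 in control and 0.857 and 1.42 in knockout. In the high cells of the same libraries it was 1.02, 0.984, 0.953 and 1.30. In primed control cells without high cells the ratio was 0.111 and 0.159. With Lcn2 set aside, S100a8 held 31.4% and 42.5% of the other member UMIs outside in control and 38.9% and 17.9% in knockout. In the high cells S100a8 held 34.04%, 38.5%, 40.6% and 32.9%. In control replicate 1 S100a9 (33.8% outside, 34.8% in high cells) and Ngp (12.02%, 12.7%) were also close. Camp (8.15%, 12.3%) and Chil3 (9.98%, 1.42%) were not. In knockout replicate 2 Ltf held 40.3% outside against 1.19%. Erythroid-primed cells, which should lack these genes, were at 11.8 and 8.62 CPM of the 8 genes in control and at 0 in both knockout libraries. These levels rest on 13 and 3 UMIs, 12 of the 13 in 1 cell, and in the 26 and 59 knockout cells 3 UMIs would be 5.18 and 2.31 CPM. Whether free RNA has a part in the low counts outside the gates was not tested. A test of the difference in genotype fold between the gate and the cells outside it called 7 of 8 members beside 4.38% of 13253 genes (1.25% higher), but without high cells it called 1 of 7 tested, S100a8, with the opposite sign (-2.60), beside 5.1% of 13245 genes. The direction of this difference thus depended on a few high cells. When each cell was thinned to 2000 UMIs, S100a8 was found in 0.606% and 1.96% of control cells outside the gates and 0.142% and 0% of knockout cells (unthinned 1.72%, 8.19%, 1.81% and 0.301%). None of 3115 knockout replicate 2 cells had an S100a8 UMI after thinning (exact 95% upper bound 0.118%), a limit for cells at that depth and not for the same cells unthinned. Lcn2 was found after thinning in 12.8% and 12.7% of primed control cells and 5.26% and 5.56% of primed knockout cells (unthinned 38.3%, 56.9%, 34.4% and 26.7%).

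**Figure D4:**
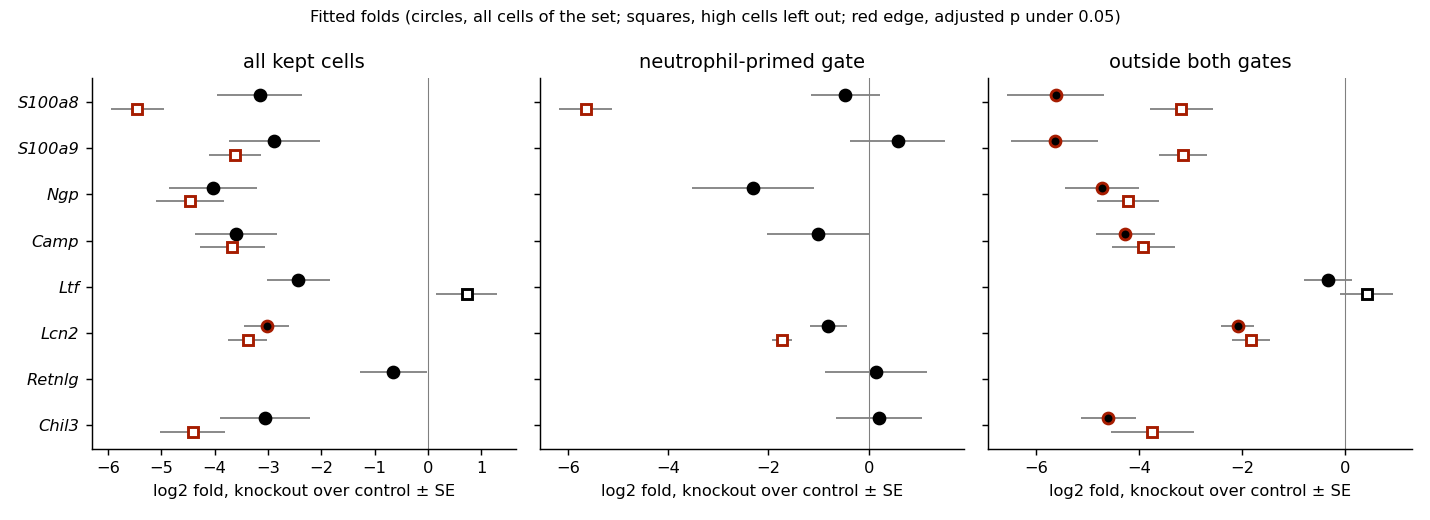
Log2 fold of knockout over control with its SE for each gene in 3 sets of cells, with all cells (circles) and with high cells left out (squares); a red edge marks an adjusted p under 0.05, and genes too low to test, or at 0 in both knockout libraries, have no point. In the primed gate Lcn2 moves from -0.80 to -1.74 and S100a8 from -0.47 to -5.65 when high cells are left out. The -5.65 rests on 4 and 3 S100a8 UMIs in the knockout libraries.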

How the data were processed

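Per the labels, live Lin-Sca1+cKit+ cells were sorted and processed with the 10x Genomics 3′ kit v3.1, and the submitters' processing notes name Cell Ranger 3.1 and mm10. The authors deposited whole-number UMI counts per gene and barcode, without normalization. Barcodes with under 200 genes, over 10% mitochondrial UMIs, or a copy with 3 times the UMIs in another library were left out. Doublets were not called. Members and gene lists were chosen with earlier results of these data known. Of 3 gating rules looked at, the last was used, and the 0.5% and 1% cutoffs and the bins were chosen after the data were seen. Named genes are the 8 members, up to 4 genes per list and direction past the threshold, and the 10 most alike genes (log2 of CPM plus 1, mean at least 5). Sums of UMIs per library were tested with edgeR 4.0.16 in R 4.3.3 (low-count filter, trimmed mean of M-values, adjusted p under 0.05). DESeq2 1.42.0 was an alternative. Counts were read with Python 3.11.15. In simulated counts with 200 changed genes, 70.5% were found over all cells with 5.37% false calls, 72.5% in the primed gate with 5.84%, 80.0% outside with 5.88%, 90.0% between gates with 1.64% and 57.0% for the interaction with 4.20%. These rates hold for random genes drawn with the spread typical of their level. They do not cover genes whose RNA lies in a few cells, as for most of the 8 members. Replicate numbers were not shown to pair the libraries.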

Additional observations from a re-analysis of the deposited data

Results flagged for a closer look

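The fold between genotypes was set against that outside both gates by an interaction term in edgeR's quasi-likelihood fit with library as a term (4.38% of 13253 genes called, 1.25% in the direction of the members). The log2 differences were 5.45 for S100a8, 6.87 for S100a9, 3.94 for Ngp, 4.31 for Camp, 1.34 for Lcn2, 3.77 for Retnlg and 5.51 for Chil3, in the direction of a smaller fall in the primed gate. They compare sums to which 1 high cell in each knockout library gave most of the S100 UMIs, and Retnlg had too few UMIs outside the gates to be tested there. Without high cells 1 of 7 members tested was called, S100a8 at -2.60, in a fit that shared 1 spread among all genes, and Lcn2 was at 0.14 (SE 0.23, edgeR adjusted p = 0.854). DESeq2 called 2 of the 8, and 3 passed without Nup358 knockout replicate 2, where Ngp, Camp, Lcn2 and Retnlg changed sign. The fit borrowed spread across genes with a prior of 69.9 degrees of freedom, against 4.93 over all kept cells, and its adjusted p for S100a8 was 2.80e-27. Left out of the gate, the high cells took S100a8 in knockout from 156.3 and 436.4 CPM to 1.58 and 1.51, so that the direction in the gate depends on them.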

How the results depend on the processing

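The calls depended on how the spread between 2 libraries was estimated. Without a low-count filter, 1933 genes and 8 members were called over all kept cells, 830 and 3 in the primed gate and 2436 genes outside. DESeq2 called 946 genes and 3 members over all cells, 1147 genes outside and 2 members by the interaction. With the replicate block, 1257 genes and 7 members were called over all cells and 551 and 4 in the gate, and outside 796 and 6. The deviations of libraries with the same number correlated at -0.057, so the numbers are not shown to pair, and the block changed no other count by over 1.5 times. Without the mature neutrophil gate 2 members were called over all cells, and without high cells 6 over all cells, 3 in the gate, 2 between gates and 1 by the interaction.

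Leaving out 1 library gave 372 to 2890 genes and 6 to 8 members over all cells, 20 to 1239 and 0 to 5 in the gate, 363 to 2904 and 6 to 7 outside, 3544 to 5648 and 5 to 7 between gates and 3 to 7 members by the interaction. The high-cell difference ranged from -0.43 to 0.0393 points, and was 0.0387 with all deposited barcodes. A fit without 1 library keeps 1 library in 1 genotype, so its count of calls also follows how much spread is borrowed across genes. Values without 1 library are given with the far end of their range. Over all cells Ltf turned to 0.73 without high cells and Retnlg to 0.72 without control replicate 2 (lowest -1.37). In the gate without control replicate 2, S100a8 turned to 1.61 (lowest -1.37), Ngp to 0.87 (lowest -8.43), Camp to 1.36 (lowest -4.46) and Retnlg to -0.32 (highest 1.33). Without control replicate 1, S100a9 turned to -0.34 (highest 3.48) and Chil3 to -0.89 (highest 2.66). Without knockout replicate 1, S100a8 turned to 0.08, and without knockout replicate 2, S100a9 to -1.41, Retnlg to -7.89 and Chil3 to -0.50. Without high cells S100a9 in the gate was fitted at -9.56, a value set by the prior count since both knockout libraries are at 0. Outside, Ltf turned to 0.42 without high cells and 0.050 without control replicate 1 (lowest -0.72). Between gates Ltf turned to -0.42 with all barcodes and -0.014 with DESeq2. By the interaction without knockout replicate 2, Ngp turned to -3.39 (highest 6.30), Camp to -0.35 (highest 6.02), Lcn2 to -0.21 (highest 2.40) and Retnlg to -6.20 (highest 5.80). By the interaction without high cells, S100a8 turned to -2.60, S100a9 to -7.75, Ngp to -4.40, Ltf to 0.65 and Chil3 to -4.71, fitted values against knockout sums of 0 to 4 UMIs in the gate. The cause was not tested. Lcn2 kept its sign in every alternative of the 3 genotype comparisons.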

Other observations

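Of the barcodes left out as copies, 21 were high cells, and all 21 had a high cell at the same barcode in the library with more UMIs. They held 5614 of the 6082 member UMIs of all copied barcodes.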
